A study of Rattus norvegicus with 4 samples.

Results

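Rat heat shock proteins, the J proteins that work with them and the protein disulfide isomerases were followed in PC12 cells with and without a MAX expression plasmid. Members were all non-control probes whose RefSeq accession belongs to a gene with a symbol starting Hspa, Hspb, Hspd, Hspe, Hsph, Hsp90, Dnaja, Dnajb, Dnajc, Pdia, or Cct followed by a digit. The rule used gene names and no measured value. It found 76 of the 41012 probes on the array, for 55 of the 8899 genes that could be named. RefSeq lists 92 protein-coding rat genes with such symbols, so the families are covered in part. Hspa9 and Dnajb1 are among the genes without a named probe. Of these 55 genes, 51 were well above background on all 4 arrays and were tested. The other 4, Dnajb13, Dnajc5g, Hspb2 and Hspb3, were not well above background on any array, so no fold is given for them.

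Chaperones hold unfolded or newly made proteins so that they fold and do not aggregate. HSP70 proteins bind and release exposed stretches of their clients with the help of ATP, J proteins bring clients to HSP70 and start its ATPase, and exchange factors reset the cycle. HSP90 acts later on kinases, receptors and transcription factors, the chaperonins CCT and HSPD1 with HSPE1 enclose a client in a chamber, small heat shock proteins bind clients without ATP, and protein disulfide isomerases form and exchange disulfide bonds in the endoplasmic reticulum. The heat shock factors raise many of the cytosolic genes under stress, and the unfolded protein response raises those of the endoplasmic reticulum. MAX is the partner with which MYC and the MXD proteins bind DNA at E-boxes.

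PC12 is a cell line from a rat pheochromocytoma, a tumour of adrenal chromaffin cells, and is known for lacking functional MAX protein. One line was transfected with an empty vector and the other with a plasmid that codes for MAX, and per the labels both were selected with E418. Total RNA of each line was hybridised to 2 one-colour Agilent rat arrays, from cells at passages 8 and 13. The labels do not say which array is which passage. Each group is thus 1 transfected line, and the p-values reflect how 2 passages of one culture differed, not how transfections differ. All differences are MAX vector minus empty vector, on a log2 scale after subtracting each array's 75th percentile of signal.

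The share of probes that stood well above background ran from 64.4% on MAX vector replicate 1 to 71.5% on empty vector replicate 1, and no probe was saturated. Log2 signals correlated across probes at r = 0.991 between the empty vector arrays and 0.989 between the MAX vector arrays. The single probe for rat Max was well above background on 0 of the 4 arrays, and the species and sequence carried by the plasmid were not analysed here, so this probe does not check the labels. MAX vector replicate 1 was on slide 2 and the other 3 arrays on slide 1. Cell type markers were counted by probes that could be named, so a marker without one may still be on the array. Of 12 chromaffin markers, 11 had a probe and 9 were well above background on all 4 arrays, among them Th, Ddc, Chga and Phox2a. The log2 of the summed signal of the 11 was 4.40 on both empty vector arrays and 3.61 and 3.59 on the MAX vector arrays. Such sums weigh the brightest markers most, and directions of single markers are not given here. Summed macrophage markers (Cd14, Cd68 and Csf1r, 3 of 4 with a probe) were at 2.28 and 2.48 against 3.18 and 3.14, and summed epithelial markers (4 of 4) at 2.79 and 2.79 against 3.57 and 3.47. Fibroblast markers (4 of 6, all well above background) gave 6.99 and 7.14 against 7.08 and 7.17. Of the endothelial markers, 2 of 4 had a probe, Pecam1 was not well above background on any array, and the sum was -5.24 and -5.16 against -3.71 and -3.18. The part of these shifts in the results on chaperones was not tested. In bulk RNA, fewer cells of a type and less RNA per cell cannot be told apart.

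The measured chaperone genes of PC12 cells differed little between the MAX vector and the empty vector. None of the 51 measured genes passed limma's test at an adjusted p of 0.05 over all 25356 genes tested; the test called 0.576% of all genes higher and 0.264% lower. At an unadjusted p under 0.05, 2 members were higher, Dnajc22 and Hspb1, against 7.93% of all genes, and 2 were lower, Pdia5 and Hspb6, against 8.21%. Groups did not overlap for 11 of 51 members with both MAX vector arrays higher and for 11 with both lower. Over all genes the shares were 24.2% and 26%. The members' counts of non-overlapping groups were thus close to this background, and those at an unadjusted p under 0.05 were no larger than it.

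The differences of the chaperone genes were also small in size. Of the 51 genes, 27 had a positive and 24 a negative difference, with a median of 0.01 and a range from -0.86 to 0.44; the median of all genes was -0.02. The median absolute difference was 0.08 for the members, 0.16 for all genes tested and 0.11 for the 9097 genes whose mean log2 signal was above 0, a level that 39 of the 51 members also had. Differences over 1.2-fold were seen in 5 of the 51 genes (9.80%), in 31.2% of all genes and in 16.9% of those brighter genes. For 49 of the 51 the 95% interval of the difference lay within 2-fold either way; Pdia5 and Cct6b were the exceptions. Among all genes it did so for 20926 of 25356 (82.5%). Among the brighter genes it did so for 8789 of 9097 (96.6%), close to the members' share of 96.1%. Between the replicate arrays of a group the members correlated at r = 0.998 and 0.999, across genes that are not independent replicates. The adjusted test asks for more than an interval that leaves out 0: Pdia5, with a difference of -0.86, did not pass it. Shifts of that size or smaller could thus be missed with 2 arrays a group.

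**Figure D1:**
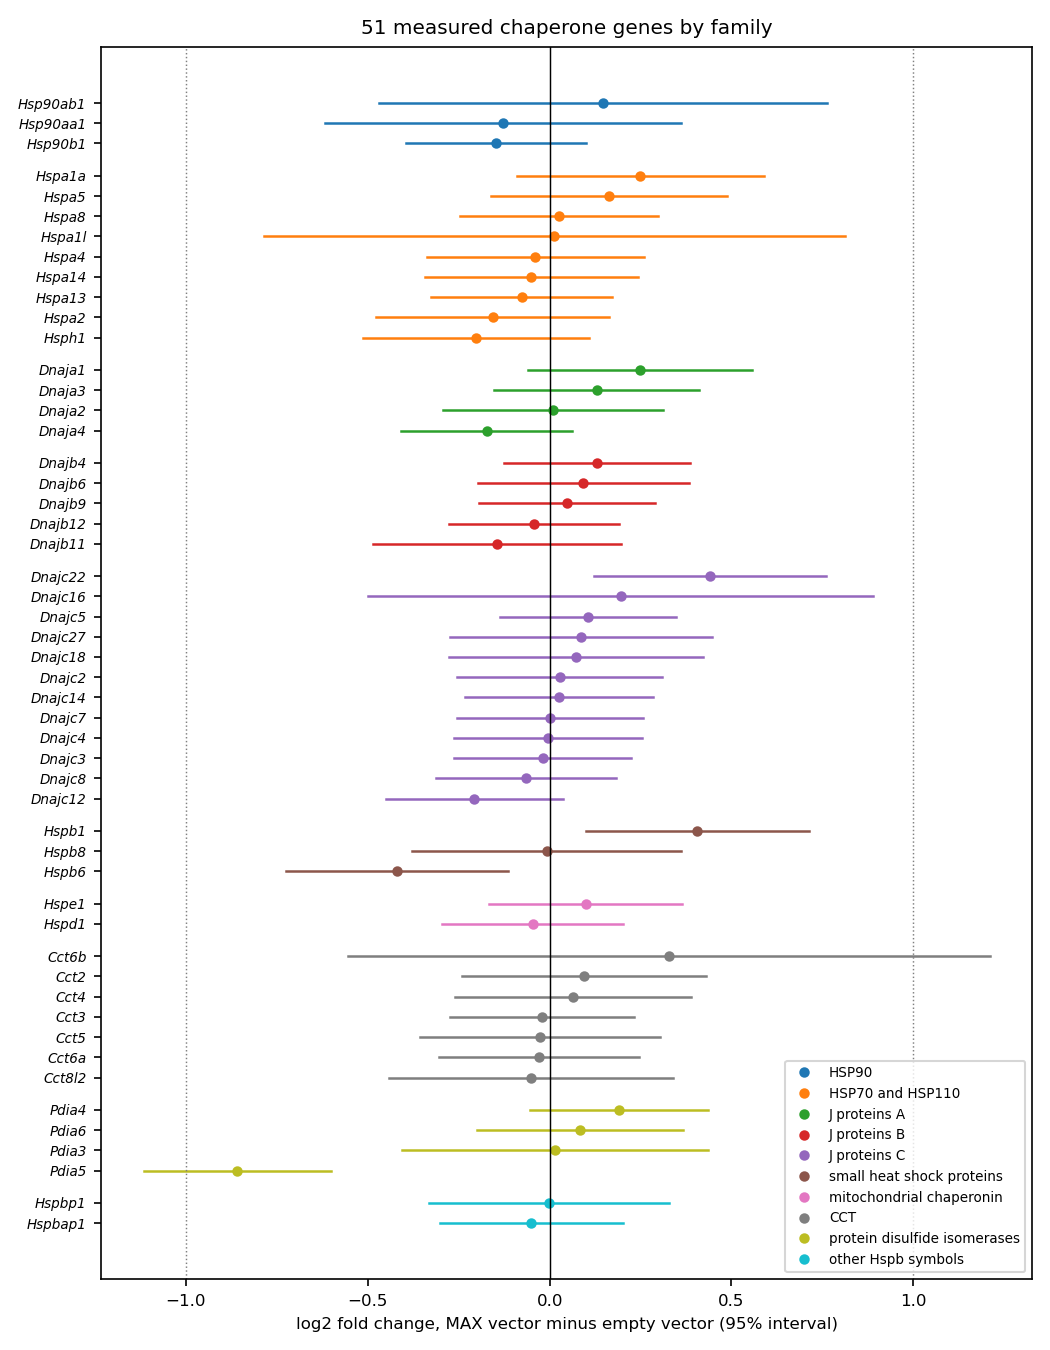
Log2 difference, MAX vector minus empty vector, of the 51 measured chaperone genes, grouped by family. Points are limma estimates over 2 arrays per group, lines are 95% intervals, and dotted lines mark 2-fold; the intervals of Pdia5, Hspb6, Hspb1 and Dnajc22 do not include 0, and none of the 51 passed the adjusted test.

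**Figure D2:**
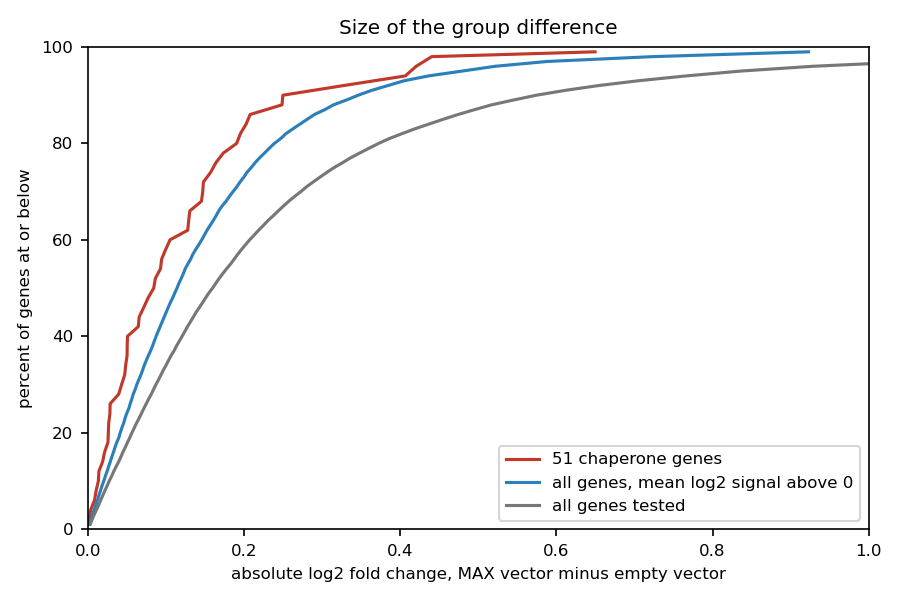
Cumulative percent of genes (y axis) at or below an absolute log2 difference (x axis) for the 51 chaperone genes, for all 25356 genes tested and for the 9097 with a mean log2 signal above 0. Their medians are 0.08, 0.16 and 0.11, in that order, and the chaperone curve lies to the left of both others.

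The largest difference in the family was that of Pdia5, an oxidoreductase of the endoplasmic reticulum that has been linked to activation of the stress sensor ATF6. Its log2 signal was -0.57 and -0.63 on the empty vector arrays and -1.50 and -1.41 on the MAX vector arrays. Both MAX vector arrays lay below both empty vector arrays, with a distance between the groups many times that between replicates. The difference was -0.86 ± 0.09 (SE, 2 arrays a group), or 1.81-fold lower, with a 95% interval from -1.12 to -0.60. It ranked 327 by p among all genes and missed the threshold (limma adjusted p = 0.0619). The call depended on the processing: Pdia5 passed with normexp background correction (-0.70, limma adjusted p = 0.00571), when only probes well above background on all 4 arrays were kept (adjusted p = 0.0300) and with an intensity trend in limma's variance (adjusted p = 0.00968). It did not pass under the other 12 settings tried, and its difference lay between -0.90 and -0.70 under all 15.

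The other disulfide isomerases did not share this difference. Pdia4, which carries several thioredoxin-like active sites and is a target of the unfolded protein response, had 2.31 and 2.31 on the empty vector arrays and 2.54 and 2.47 on the MAX vector arrays. The groups did not overlap, and the difference of 0.19 ± 0.09 (SE) did not pass (limma adjusted p = 0.400). Pdia6, a partner of the sensor IRE1, was at 0.08 ± 0.10 and Pdia3, which folds glycoproteins with calnexin and calreticulin, at 0.01 ± 0.15, with overlapping groups for both. The promoter of Pdia5 is shown because its gene had the largest difference of the family. The window is the 250 bases before the gene's start in RefSeq's rat assembly GRCr8 (chr11:78777258-78777507, plus strand). It held none of the full motifs, which are spelled out with the small heat shock proteins. It did hold CCACG, a part of the endoplasmic reticulum stress element, on the other strand. CCACG alone was in 21 of the 42 windows of measured members (50%), in 27.2% of all windows and in 30.7% of those of protein-coding genes.
Pdia5: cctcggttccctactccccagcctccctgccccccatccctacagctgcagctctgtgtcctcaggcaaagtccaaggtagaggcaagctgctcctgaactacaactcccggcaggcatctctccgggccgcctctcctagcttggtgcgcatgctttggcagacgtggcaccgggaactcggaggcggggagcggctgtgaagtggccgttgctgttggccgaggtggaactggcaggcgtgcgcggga

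Among the small heat shock proteins, Hspb1 and Hspb6 differed in opposite directions. Hspb1 encodes HSP27, which binds unfolding proteins and actin. Its log2 signal was 5.90 and 6.03 on the empty vector arrays and 6.44 and 6.30 on the MAX vector arrays. Both MAX vector arrays lay above both empty vector arrays, and the difference was 0.41 ± 0.11 (SE), or 1.33-fold higher (limma adjusted p = 0.227). Hspb6 encodes HSP20, a small heat shock protein known best from muscle. It read 2.0 and 2.13 on the empty vector arrays against 1.72 and 1.57 on the others. Here both MAX vector arrays were lower, with a difference of -0.42 ± 0.11 (SE), or 1.34-fold lower (limma adjusted p = 0.217). With normexp correction Hspb6 passed (-0.52, adjusted p = 0.0342) and Hspb1 did not (0.42, adjusted p = 0.110). Hspb8, which works with the cochaperone BAG3 in selective autophagy, had 2.19 and 2.17 against 2.32 and 2.03. Its MAX vector arrays lay on either side of the empty vector arrays, with a difference of -0.01 ± 0.13.

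**Figure D3:**
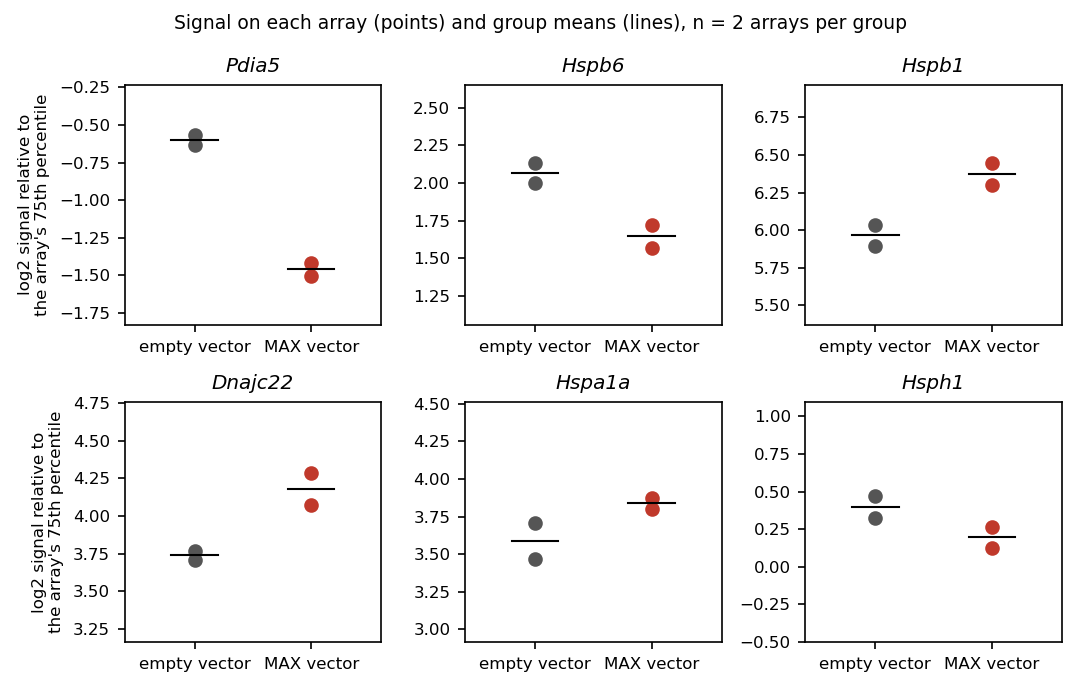
Log2 signal relative to the array's 75th percentile on each of the 4 arrays (points) with group means (lines, n = 2 arrays per group) for Pdia5, Hspb6, Hspb1, Dnajc22, Hspa1a and Hsph1. Each panel has its own origin and the same span; in all 6 genes the groups do not overlap, with MAX vector arrays lower for Pdia5, Hspb6 and Hsph1 and higher for the other 3.

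The promoters of Hspb1 and Hspb6 are shown because both genes had among the largest differences, in opposite directions, and both carry inverted heat shock element units. Windows of 250 bases before the start were found in RefSeq (GRCr8) for 45 of the 55 members, 42 of them measured. They were searched on both strands for TTCNNGAA and GAANNTTC, the 2 inverted forms of a heat shock element unit, for the E-box CACGTG, and for the endoplasmic reticulum stress element, CCAAT and CCACG with 9 bases between them. Heat shock element units can overlap each other. Capitals mark matches.
Hspb1 (chr12:26432302-26432551, minus strand): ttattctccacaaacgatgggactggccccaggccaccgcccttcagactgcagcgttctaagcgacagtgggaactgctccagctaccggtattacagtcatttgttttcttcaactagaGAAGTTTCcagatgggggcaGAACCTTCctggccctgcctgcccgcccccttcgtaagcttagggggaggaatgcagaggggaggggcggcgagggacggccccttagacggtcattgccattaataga
Hspb6 (chr1:94934122-94934371, plus strand): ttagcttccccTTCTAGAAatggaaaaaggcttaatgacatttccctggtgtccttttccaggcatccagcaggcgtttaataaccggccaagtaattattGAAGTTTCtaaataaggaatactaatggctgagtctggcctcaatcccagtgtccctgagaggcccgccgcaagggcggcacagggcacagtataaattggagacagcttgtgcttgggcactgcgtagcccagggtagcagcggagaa
Matches began 129 and 109 bases before the start of Hspb1 and 239 and 149 bases before that of Hspb6. A heat shock element unit was present in 15 of the 42 windows of measured members (35.7%) and in 13.6% of all 33469 windows of that length. Among the 21851 windows of protein-coding genes the share was 12.7%. Of the 15 genes with a unit, 7 had a positive and 8 a negative difference (median -0.01); of the 27 without, 14 were positive and 13 negative (median 0.00). A match describes the letters of the window and is not evidence of binding. Nor does a window without a match show that a gene lacks heat shock elements: the heat-inducible Hspa1a is among the 27.

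In the HSP70 and HSP110 family, 9 genes were measured, 4 with a positive and 5 with a negative difference (median -0.04). Hspa1a, the heat-inducible HSP70, had 3.47 and 3.71 on the empty vector arrays and 3.80 and 3.87 on the MAX vector arrays. The MAX vector arrays were both higher, by 0.25 ± 0.12 (SE, limma adjusted p = 0.418). Its dimmer probe read 1.16 and 1.47 against 1.73 and 1.64, a difference of 0.37 in the same direction. Hspa1b is a nearly identical copy whose transcripts such probes may also detect, so the 2 cannot be told apart. Hspa5, the HSP70 of the endoplasmic reticulum (BiP), read 6.83 and 6.75 against 7.06 and 6.85. Its groups also did not overlap, with a difference of 0.16 ± 0.12 (adjusted p = 0.550), which was 0.06 without MAX vector replicate 1. Hspa8, the constitutive HSP70, differed by 0.03 ± 0.10 with overlapping groups on its brightest probe.

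None of the HSP110 members, which act as exchange factors for HSP70, or of the remaining HSP70 genes passed. Hsph1 read 0.47 and 0.32 against 0.27 and 0.13. The MAX vector arrays were both lower, with a difference of -0.20 ± 0.11 (limma adjusted p = 0.461); with normexp correction it was -0.02. Hspa4 differed by -0.04 ± 0.11. The testis-enriched Hspa2 read -0.24 and -0.27 against -0.30 and -0.52, a difference of -0.16 ± 0.11 with groups that did not overlap, and of -0.05 without MAX vector replicate 2. Hspa13, a microsomal HSP70-like protein, differed by -0.08 ± 0.09 in the same way. Hspa14, found with ribosomes, differed by -0.05 ± 0.10 and Hspa1l, a testis-enriched HSP70, by 0.01 ± 0.29, with overlapping groups.

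Hsph1 is shown because its window holds both an E-box, the site of MYC and MAX dimers, and heat shock element units.
Hsph1 (chr12:10427118-10427367, plus strand): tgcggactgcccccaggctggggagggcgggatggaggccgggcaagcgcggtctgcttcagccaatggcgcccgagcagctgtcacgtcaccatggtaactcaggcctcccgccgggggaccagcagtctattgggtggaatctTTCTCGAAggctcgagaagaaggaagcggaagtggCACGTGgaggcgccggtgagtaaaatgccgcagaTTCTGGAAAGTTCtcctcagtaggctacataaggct
The E-box began 70 bases before the start and the units 105, 36 and 31 bases before it, the last pair overlapping. An E-box was present in 4 of the 42 windows of measured members (9.52%), in 5.59% of all windows and in 6.16% of those of protein-coding genes. The other 3 were Dnajb9, Dnajc16 and Hspbap1, with 2 each in the last pair. These 4 genes had differences of -0.20 (Hsph1), 0.05 (Dnajb9), 0.20 (Dnajc16) and -0.05 (Hspbap1), none of which passed.

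None of the 3 HSP90 genes passed. Hsp90aa1, the stress-inducible cytosolic form, read 7.45 and 7.21 against 7.38 and 7.02, with overlapping groups and a difference of -0.13 ± 0.17 (SE). Hsp90ab1, the constitutive form, read 6.50 and 6.04 against 6.59 and 6.25. Its groups overlapped as well, and the difference was 0.15 ± 0.22. On these brightest probes single arrays set both signs: the difference of Hsp90aa1 was 0.05 without MAX vector replicate 2, and that of Hsp90ab1 was -0.08 without empty vector replicate 2. The dimmer probe of Hsp90ab1 read 5.52 and 5.59 against 5.62 and 5.74, higher without overlap by 0.13. The dimmer probes of Hsp90aa1 were negative like its brightest. Hsp90b1, the HSP90 of the endoplasmic reticulum (GRP94), read 5.49 and 5.48 against 5.38 and 5.30. Without overlap of the groups, the difference was -0.15 ± 0.09 (limma adjusted p = 0.493). RefSeq lists 41 rat pseudogenes with symbols of this family beside 3 coding genes, and 37 beside 14 for HSP70 and HSP110, so probes for these genes may also detect copies.

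The promoters of Hspa5 and Hsp90b1 are shown because both hold a full endoplasmic reticulum stress element, the site through which ATF6 acts, while the genes' differences had opposite signs.
Hspa5 (chr3:38452766-38453015, plus strand): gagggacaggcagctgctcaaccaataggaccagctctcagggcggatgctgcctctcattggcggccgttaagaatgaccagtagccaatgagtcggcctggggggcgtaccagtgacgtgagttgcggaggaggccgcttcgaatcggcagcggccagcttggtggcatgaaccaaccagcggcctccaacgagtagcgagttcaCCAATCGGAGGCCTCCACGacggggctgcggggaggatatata
Hsp90b1 (chr7:23012294-23012543, minus strand): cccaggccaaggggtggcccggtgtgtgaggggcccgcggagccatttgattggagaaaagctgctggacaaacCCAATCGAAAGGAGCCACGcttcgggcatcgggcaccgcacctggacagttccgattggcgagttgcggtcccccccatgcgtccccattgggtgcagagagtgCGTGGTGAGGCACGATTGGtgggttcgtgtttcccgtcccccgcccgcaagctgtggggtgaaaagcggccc
The element began 43 bases before the start of Hspa5 and 176 and 72 bases before that of Hsp90b1, where the second match is on the other strand. Besides these, Dnajc3 held 1, so that 3 of the 42 windows had it (7.14%) against 22 of 33469 windows in all (0.0657%). Among protein-coding genes it was in 19 of 21851 windows (0.087%). Dnajc3 encodes P58IPK, a J protein of the endoplasmic reticulum that also inhibits the kinase PERK. It read 3.07 and 3.08 against 3.09 and 3.02, with overlapping groups and a difference of -0.02 ± 0.09.

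The endoplasmic reticulum members as a list did not move one way. Of 14 listed, 10 were measured, 5 positive and 5 negative, with a median of 0.00. Groups did not overlap for 3 of them with the MAX vector higher (Hspa5, Pdia4 and Dnajb9) and for 4 with it lower (Pdia5, Hsp90b1, Dnajb11 and Hspa13), against 24.2% and 26% of all genes. Dnajb11, a J protein that serves BiP, read 0.94 and 0.94 against 0.92 and 0.67, a difference of -0.15 ± 0.12. It rested on MAX vector replicate 2, without which it was -0.02. Dnajb9, an inducible J protein that dampens IRE1, read 1.71 and 1.70 against 1.72 and 1.78 on its brighter probe, a difference of 0.05 ± 0.09. Its dimmer probe read 1.22 and 1.14 against 1.05 and 1.01, a difference of -0.15, so the 2 probes gave groups that did not overlap in opposite directions.

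Among the J proteins, 21 of 23 named genes were measured, and the only difference at an unadjusted p under 0.05 was that of Dnajc22, a membrane J protein named for its likeness to the fly gene wurst. Dnajc22 read 3.71 and 3.77 on the empty vector arrays and 4.29 and 4.08 on the MAX vector arrays. The groups did not overlap, the MAX vector being higher by 0.44 ± 0.11 (SE), or 1.36-fold (limma adjusted p = 0.216). It passed with normexp correction (0.52, adjusted p = 0.0392) and under none of the other 14 settings. Within slide 1, which leaves out MAX vector replicate 1, the differences of the 4 genes with an unadjusted p under 0.05 were -0.81 for Pdia5, -0.49 for Hspb6, 0.33 for Hspb1 and 0.34 for Dnajc22.

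Class A members, built like bacterial DnaJ, had 3 positive and 1 negative difference. Dnaja1, an HSP70 partner in the cytosol, read 5.52 and 5.67 against 5.91 and 5.78. Both MAX vector arrays were higher, by 0.25 ± 0.11 (limma adjusted p = 0.385). The mitochondrial Dnaja3 was higher by 0.13 ± 0.10 and Dnaja4 lower, with a difference of -0.17 ± 0.08, also without overlap of the groups. Dnaja2 differed by 0.01 ± 0.11. In class B, which keeps the J domain and a glycine-rich stretch but lacks the zinc finger of class A, Dnajb4 differed by 0.13 ± 0.09, Dnajb6, which holds back polyglutamine aggregation, by 0.09 ± 0.10 and Dnajb12 of the endoplasmic reticulum membrane by -0.04 ± 0.08. On the probes used in the fit, groups did not overlap for Dnajb4, higher, and Dnajb12, lower. The dimmer probe of Dnajb6 read -0.65 and -0.63 against -0.44 and -0.44, higher without overlap by 0.20.

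Class C members share only the J domain, and 12 of 13 were measured, 8 positive and 4 negative (median 0.03). Dnajc12, associated with the hydroxylases that make catecholamines and serotonin, read -1.59 and -1.63 against -1.79 and -1.84. Again the groups did not overlap, with a difference of -0.21 ± 0.09 (limma adjusted p = 0.365). Dnajc5, the cysteine string protein of synaptic and secretory vesicles, read -1.20 and -1.14 against -1.05 and -1.08. Here the MAX vector arrays were both higher, by 0.11 ± 0.09 (adjusted p = 0.602). Dnajc8, a splicing-associated J protein, differed by -0.07 ± 0.09, also with groups that did not overlap. Dnajc16 read -4.66 and -4.78 against -4.85 and -4.20, and its difference of 0.20 ± 0.25 was smaller than the distance of 0.64 between its MAX vector arrays and was -0.13 without MAX vector replicate 2. The other 7 class C genes lay between -0.02 and 0.09 with overlapping groups.

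The mitochondrial chaperonin is made of HSPD1 (HSP60) and its lid HSPE1 (HSP10). Hspe1 read 6.52 and 6.63 against 6.65 and 6.70, a difference of 0.10 ± 0.10 (SE) with both MAX vector arrays higher. Hspd1 read 6.42 and 6.39 against 6.40 and 6.32, a difference of -0.05 ± 0.09 with overlapping groups, and its other 3 probes were also negative, down to -0.27. The 2 genes thus had opposite signs, and neither passed. Their promoter is shown because they lie head to head: in GRCr8 their starts on chromosome 9 are 289 bases apart, and the 2 windows share 211 bases.
Hspe1 (chr9:64084077-64084326, plus strand): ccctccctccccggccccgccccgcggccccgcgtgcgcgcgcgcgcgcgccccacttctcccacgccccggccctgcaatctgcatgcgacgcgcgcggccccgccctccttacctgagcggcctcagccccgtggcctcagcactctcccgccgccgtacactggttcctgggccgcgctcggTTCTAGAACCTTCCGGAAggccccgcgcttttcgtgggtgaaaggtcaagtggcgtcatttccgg
The capitals mark 3 overlapping heat shock element units, which began 65, 60 and 55 bases before the start of Hspe1 and lie within the window of Hspd1 as well. Of 10 mitochondrial members listed, 4 were measured, 2 positive and 2 negative, with a median of 0.05.

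Subunits of CCT, the cytosolic chaperonin that folds actin and tubulin, had a median of -0.02 over 7 genes. On the brightest probes, used in the fit, groups overlapped in all 7, while over all genes 24.2% were higher and 26% lower without overlap. The dimmer probe of Cct2 read 4.06 and 3.99 against 4.27 and 4.08, higher without overlap by 0.15. Cct2 differed by 0.09 ± 0.12, Cct4 by 0.06 ± 0.12, Cct3 by -0.02 ± 0.09, Cct5 by -0.03 ± 0.12 and Cct6a by -0.03 ± 0.10. The testis-enriched Cct6b read -4.12 and -4.97 against -4.19 and -4.25. Its difference of 0.33 ± 0.32 was smaller than the distance of 0.85 between its empty vector arrays, and it was -0.10 without empty vector replicate 2. The CCT-like Cct8l2 differed by -0.05 ± 0.14. Hspbp1, an exchange factor for HSP70, and Hspbap1, a protein that binds HSP27, were named by their symbols and differed by 0.00 ± 0.12 and -0.05 ± 0.09.

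Members listed as cytosolic and heat-inducible did not all move one way. The list is wider than its name, as it also holds the constitutive Hspa8 and Hsp90ab1 and the testis-enriched Hspa1l. Its counts and median thus do not describe heat-inducible genes alone. Of 15 listed, 11 were measured, 7 positive and 4 negative, with a median of 0.03. Groups did not overlap for 4 with the MAX vector higher (Hspb1, Hspa1a, Dnaja1 and Dnajb4) and for 1 with it lower (Hsph1), against 24.2% and 26% of all genes. The list was set up with earlier results of these data known, and it gives no test.

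For 15 genes the array held more than 1 probe well above background, 36 probes in all. Probes of 13 genes gave 1 sign, all positive in 4 genes (Cct2, Dnajb6, Hsp90ab1 and Hspa1a) and all negative in 9. Dnajb9 and Hspa8 gave both signs. All 4 probes of Hsp90aa1 were negative, from -0.32 to -0.10. The lowest of these read 3.33 and 3.28 against 3.02 and 2.95, the only one of the 4 whose groups did not overlap. The 4 probes of Hspd1 lay between -0.27 and -0.05, with groups that did not overlap in 2. Probes of Hspa8 ran from -0.07 to 0.15. The highest of them read 5.55 and 5.56 against 5.76 and 5.66, the only one of its 4 whose groups did not overlap. The median distance between the highest and lowest probe of a gene was 0.06 and the largest was 0.22.

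**Figure D4:**
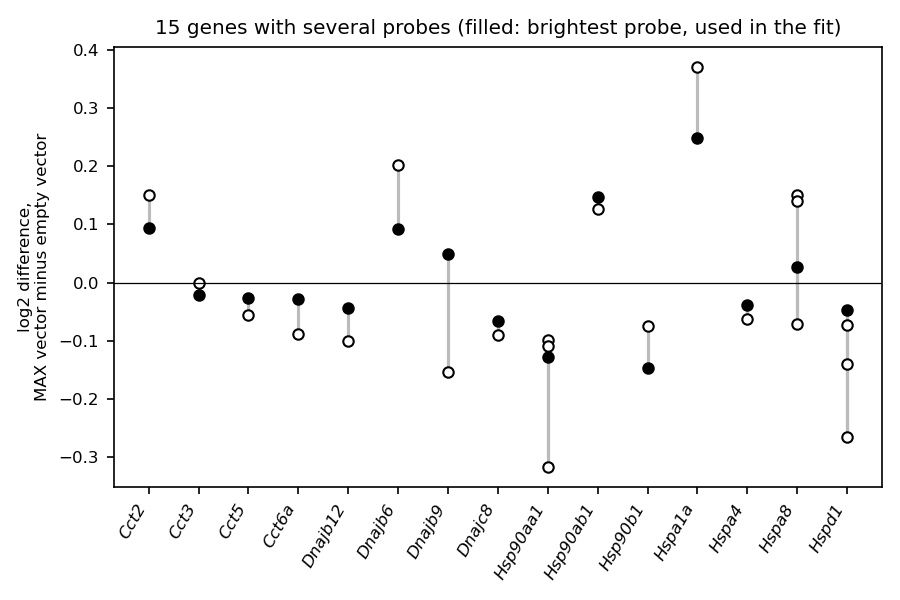
Log2 difference, MAX vector minus empty vector (y axis), of each probe of the 15 genes with several probes; filled points are the brightest probe, used in the fit, open points the others, and grey lines join probes of a gene. Probes of Dnajb9 and Hspa8 lie on both sides of 0 and those of the other 13 genes on 1 side.

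Genes of the wider network that the rule does not cover were also described by fixed lists, and none passed. Of 9 regulators, 4 had a probe that could be named, and the others may be on the array under accessions without a symbol. Ddit3, the transcription factor CHOP of the unfolded protein response, read 1.78 and 1.73 against 1.39 and 1.52. The MAX vector arrays were both lower, with a difference of -0.30 ± 0.10 (limma adjusted p = 0.284). Eif2ak3, the sensor PERK, differed by 0.24 ± 0.09 with both MAX vector arrays higher, Atf4 by -0.08 ± 0.11 and Hsf2 by 0.03 ± 0.09. Of 27 partners of HSP70 and HSP90, 18 were measured, 11 positive and 7 negative, with a median of 0.03. Sil1, the exchange factor of BiP, differed by 0.30 ± 0.12, Trap1, the mitochondrial HSP90, by 0.23 ± 0.15, Bag3 by 0.08 ± 0.08 and Grpel1, the exchange factor of mitochondrial HSP70, by -0.13 ± 0.10.

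Of 30 other folding genes, 15 were measured, 6 positive and 9 negative, with a median of -0.03. Cryab, αB-crystallin, is a small heat shock protein whose symbol the rule does not cover, and it was singled out after its values were seen. It read 3.36 and 3.34 on the empty vector arrays and 2.49 and 2.35 on the MAX vector arrays. Both MAX vector arrays were lower, with a difference of -0.93 ± 0.10 (SE), or 1.91-fold lower, which missed the threshold (limma adjusted p = 0.0591). It passed with quantile normalization (adjusted p = 0.0458), normexp correction (-0.87, adjusted p = 0.00109), probes above background on all 4 arrays (adjusted p = 0.0282) and an intensity trend (adjusted p = 0.00443). Erp29, a folding protein of the endoplasmic reticulum, differed by 0.22 ± 0.12, and the collagen chaperone Serpinh1 by -0.17 ± 0.10.

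**Figure D5:**
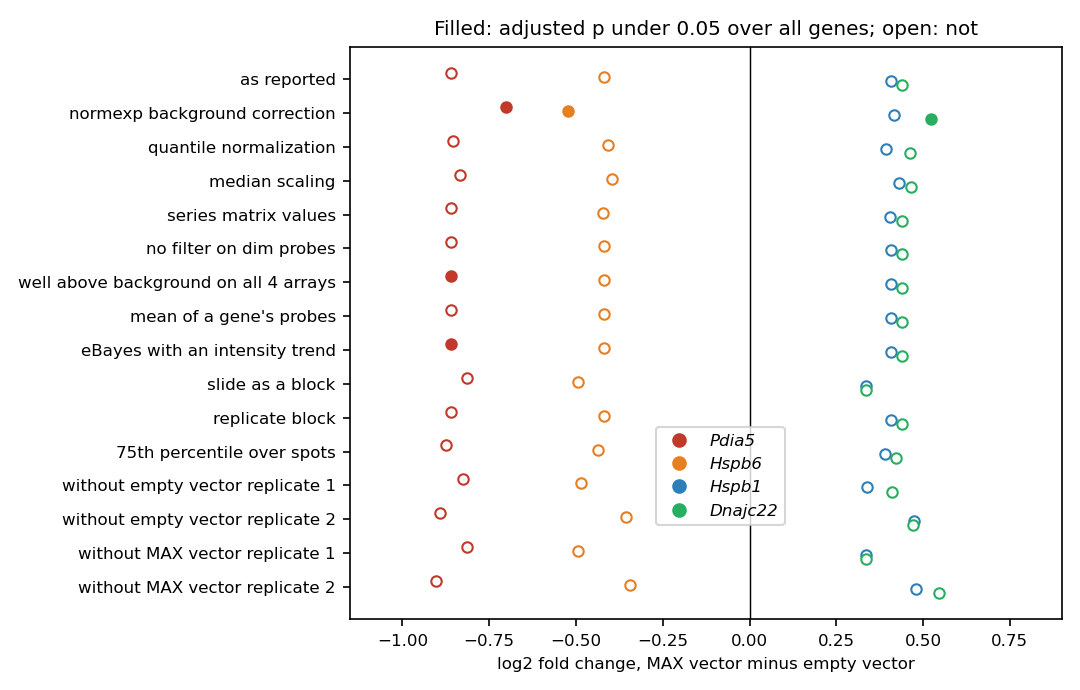
Log2 difference, MAX vector minus empty vector (x axis), of Pdia5, Hspb6, Hspb1 and Dnajc22 as reported and under 15 other settings of the processing (y axis). Filled points have an adjusted p under 0.05 over all genes; Pdia5 is filled in 3 settings, Hspb6 and Dnajc22 in 1 each and Hspb1 in none, and each gene stays on its side of 0.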

How the data were processed

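Total RNA of 4 samples was measured on one-colour Agilent rat arrays. The deposited scanner files hold spot intensity, which per the file headers was written by Feature Extraction 10.7.3.1 (10.7 in the submitters' processing notes), background-subtracted and detrended within each array. The authors' deposited value table holds log2 values: set against the scanner files, its array-to-array differences equal those of log2 processed intensity after the 75th percentile is subtracted (r = 1, SD of the disagreement at most 4.3e-07), while each probe's centring stays unknown. Column medians were -0.033, -0.011, -0.0054 and -0.0065.

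Outlier spots (89 to 140 an array) and control spots were left out, spots of a probe were averaged in log2, and the array's 75th percentile over probes was subtracted. The 28564 probes that 2 or more of the 4 arrays showed well above background were kept, and the brightest stood for a gene. Accessions were named through RefSeq's table for GRCr8: 10768 probes (26.3%) had a symbol, and the others were tested under their own names. The arrays' annotation build is rn4, so only RefSeq promoter windows carry coordinates. The groups were compared with limma 3.58.1 (R 4.3.3), Benjamini-Hochberg adjusted over 25356 genes at 0.05. The limma step was tested on simulated data with independent errors, which held no slide, passage or transfection effect.

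Genes were named by rule: any member past the test, the 2 highest and 2 lowest of each family, textbook members, and genes whose probes differ in sign; other members are given for completeness. Members and lists were chosen with earlier results of these data known. Normexp (offset 50) was run on median spot signals in place of the planned mean signals. Replicate numbers in the labels are not tied to passages, so samples were not paired. Other settings were background correction, scaling, probe filter and choice, variance trend, slide, replicate block, the deposited table and leaving out each array.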

Additional observations from a re-analysis of the deposited data

How the results depend on the processing

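No member passed under 12 of the 15 other settings. With normexp background correction 1 member was called higher (Dnajc22) and 2 lower (Pdia5 and Hspb6), and with only probes well above background on all 4 arrays, or with an intensity trend, 1 was called lower (Pdia5). With the trend or that filter the log2 difference of Pdia5 was as reported and its SE and p moved. The members' median of 0.01 became -0.047 with the slide as a block, which leaves out MAX vector replicate 1, and ranged from -0.047 to 0.052 when each array was left out in turn, lowest without MAX vector replicate 1 and highest without MAX vector replicate 2. With the replicate block 0 members passed (4 at an unadjusted p under 0.05, as without it) and the median was 0.01; same-numbered arrays' deviations correlated at -0.02 over all genes and 0.26 over the 51 members. Of 615 values of 41 named genes under 15 settings, 567 kept their sign and their side of the threshold, 5 came to pass, none was lost and 43, for 17 genes that never passed, had the other sign, at most 0.16 in size. Over all genes the reported fit called 213; the count was 794 with normexp, 541 with median scaling, 515 with the filter on all 4 arrays, 955 with the trend, 8 with the slide as a block or without MAX vector replicate 1, and 144 without MAX vector replicate 2. It was 0 with no filter on dim probes, with the replicate block and without either empty vector replicate, where 4, 4, 2 and 1 members had an unadjusted limma p under 0.05. The percentile over spots, chosen after seeing the data, called 238. The cause of these changes was not tested. Planned protein-end descriptions were not run, as no protein table was used here. The 4 dim members had no signal well above background.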
